A study of Homo sapiens with 21 samples.

Results

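The unfolded protein and integrated stress response was described through 37 genes, chosen by name from the 61544 genes of the deposited count table. All 37 passed the filter on low counts, ASNS through its reads in the drug-treated and solvent libraries alone. They fall into 18 genes of the ATF4 arm, 16 genes of the folding and degradation machinery of the endoplasmic reticulum (ER), and 3 ER stress sensors. The RNA came from BJ, a line of human skin fibroblasts that stops dividing after a limited number of passages, sequenced in 21 libraries. Groups of 3 libraries held untreated cells of passage P3, of P11, of P24, of P30 and of P33, P11 cells given DOX (doxorubicin by the series title, a DNA-damaging drug) at 50 ng/ml, and P11 cells given DMSO, its solvent. No genetic change is given for any group, the sources used here do not give the length of the DOX treatment, and all libraries come from 1 line. Separate cultures are not stated for the replicates, and the p-values then cover no more than the spread among these libraries, part of which may be technical.

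The integrated stress response begins when a stress kinase phosphorylates the translation factor eIF2. General translation then falls while the ATF4 mRNA is translated more, and the ATF4 protein switches on genes of amino acid transport and synthesis, redox balance and, when stress lasts, cell death. The unfolded protein response of the ER feeds this pathway through its kinase PERK (EIF2AK3) and adds a pair of other sensors, IRE1 (ERN1), which splices XBP1 mRNA, and ATF6, which together raise ER chaperones and degradation factors. ATF4, XBP1 and ATF6 are therefore regulated largely after transcription, by translation, splicing and cleavage. Only gene-level RNA was measured here: neither eIF2 phosphorylation nor ATF4 protein was assayed, and the counts do not separate spliced from unspliced XBP1.

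Promoter windows were searched for known binding motifs of these pathways. RefSeq windows from 250 bases before to 50 bases after the gene start (GRCh38.p14) were found for 36 of the 37 members, NUPR1 being the one not matched, and some members had several starts. The ATF4-C/EBP element, CARE, was searched as TGATGNAAN on both strands and stood in 3.61% of all 35116 promoter windows. By window, it stood in 7 of the 28 windows of ATF4-arm genes (25%) and in 1 of the 22 windows of ER genes (4.55%). By gene, these belong to 7 of 17 ATF4-arm genes and to 1 of 16 ER genes, HERPUD1. The ER stress element, ERSE, searched on both strands as CCAAT and CCACG with 9 bases of any kind between them, stood in 0.0769% of all windows, in 9 of the 22 ER windows (40.9%), which belong to 7 of 16 ER genes, and in 0 of the 28 ATF4-arm windows. ERSE-II, searched likewise as ATTGG and CCACG with 1 base between them, stood in 0.0541% of all windows and in 3 of the ER genes (HERPUD1, SDF2L1 and HYOU1). The UPRE core, searched on both strands as TGACGTGG, stood in 0.729% of all windows and in 1 ER gene, HYOU1, where it overlapped an ERSE-II match. A match is a description of letters and not a measured binding site, and CARE is short enough to be common. The ERSE match of CANX is the same site in 3 overlapping windows. Motifs and members were both taken from known pathways, so these counts do not test how the arms differ.

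The following windows are printed 5′ to 3′ on the gene's own strand, with the matched motif in capitals. CHAC1 and CEBPG are shown as ATF4-arm genes with a CARE match. HSPA5, XBP1 and CALR are shown because each holds an ERSE match while their RNA moved differently, and HERPUD1 because it holds both CARE and ERSE-II. In CHAC1, CALR and the CARE of HERPUD1 the match is on the opposite strand, so the capitals read as its reverse complement.
CHAC1, chr15:40953221-40953520, plus strand, CARE: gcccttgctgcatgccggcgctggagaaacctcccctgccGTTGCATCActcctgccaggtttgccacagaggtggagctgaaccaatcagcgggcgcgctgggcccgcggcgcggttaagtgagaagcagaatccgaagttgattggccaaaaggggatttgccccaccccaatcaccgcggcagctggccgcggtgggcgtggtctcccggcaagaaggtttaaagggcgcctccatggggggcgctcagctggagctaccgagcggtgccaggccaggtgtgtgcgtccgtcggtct
CEBPG, chr19:33373863-33374162, plus strand, CARE: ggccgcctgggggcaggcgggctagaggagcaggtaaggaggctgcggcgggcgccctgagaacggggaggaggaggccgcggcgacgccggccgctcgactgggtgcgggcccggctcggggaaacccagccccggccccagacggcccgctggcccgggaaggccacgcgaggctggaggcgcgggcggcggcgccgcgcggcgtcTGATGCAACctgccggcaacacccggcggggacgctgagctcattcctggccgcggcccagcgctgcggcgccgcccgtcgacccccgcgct
HERPUD1, chr16:56931892-56932191, plus strand, CARE then ERSE-II: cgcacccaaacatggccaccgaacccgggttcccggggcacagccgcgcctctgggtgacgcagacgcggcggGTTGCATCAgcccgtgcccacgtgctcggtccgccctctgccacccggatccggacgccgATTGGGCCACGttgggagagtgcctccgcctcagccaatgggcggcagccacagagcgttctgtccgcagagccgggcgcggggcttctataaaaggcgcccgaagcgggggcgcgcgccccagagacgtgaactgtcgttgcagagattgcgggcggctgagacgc
HSPA5, chr9:125241294-125241593, minus strand, ERSE: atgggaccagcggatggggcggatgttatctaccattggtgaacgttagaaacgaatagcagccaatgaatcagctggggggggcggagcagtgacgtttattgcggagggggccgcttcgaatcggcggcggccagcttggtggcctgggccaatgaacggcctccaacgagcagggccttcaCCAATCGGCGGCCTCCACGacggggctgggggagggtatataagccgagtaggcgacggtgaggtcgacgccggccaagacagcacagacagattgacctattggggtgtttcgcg
XBP1, chr22:28800520-28800819, minus strand, ERSE: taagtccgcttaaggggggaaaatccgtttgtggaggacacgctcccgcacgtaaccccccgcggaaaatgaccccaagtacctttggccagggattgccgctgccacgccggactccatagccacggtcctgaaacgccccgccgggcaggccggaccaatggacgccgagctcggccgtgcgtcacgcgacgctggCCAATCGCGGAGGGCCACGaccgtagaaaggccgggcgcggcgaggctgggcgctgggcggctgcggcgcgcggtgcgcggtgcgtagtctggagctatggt
CALR, chr19:12938359-12938658, plus strand, ERSE: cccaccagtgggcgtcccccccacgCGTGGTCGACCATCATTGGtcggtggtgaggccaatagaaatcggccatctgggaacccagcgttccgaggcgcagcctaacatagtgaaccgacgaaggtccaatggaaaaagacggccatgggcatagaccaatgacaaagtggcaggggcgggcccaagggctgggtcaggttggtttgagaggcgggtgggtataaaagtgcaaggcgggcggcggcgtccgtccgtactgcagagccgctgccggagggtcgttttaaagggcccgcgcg
The HSPA5 and XBP1 matches began 66 and 52 bases before the start, and the CALR match 225 bases before it. The CEBPG match began 42 bases before the start, the CHAC1 match 210 bases before it, and in HERPUD1 the CARE and ERSE-II matches 177 and 117 bases before it.

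Library totals ran from 12.9 to 27.2 M counts. All 12 fibroblast markers had reads in every group. At P33 against P3, 4 of them rose and 7 fell, where 34.5% of all genes tested rose and 33.3% fell. With DOX against DMSO, 3 rose and 8 fell, where 16.7% of all genes tested rose and 20.6% fell. The 8 keratinocyte markers summed to 163 to 183 CPM at P33, against 302 to 329 CPM at P3, and to 354 to 442 CPM with DOX, against 336 to 388 CPM with DMSO. Most of that sum at P33 and P3 was DSP, at 151.5 CPM and 302 CPM in the mean, while KRT5 was at 0 in every group. The part of these markers in the results was not tested. The 6 leukocyte markers summed to at most 2.21 CPM (counts per M counts of scaled library size). Proliferation markers summed to 655 to 713 CPM at P33, 478 to 486 at P30 and 1420 to 1500 at P3, and to 486 to 533 CPM with DOX, against 622 to 631 with DMSO. The sum hides the size of the falls with DOX, where 7 of the 8 markers fell and 1 rose, by 0.947 (log2). Their median log2 fold change was -2.147, and MKI67 averaged 8.71 CPM with DOX and 150.5 CPM with DMSO. Passage libraries differed from the DOX and DMSO libraries in ways the sources used here do not explain. ATF4 measured 194, 206 and 193 CPM in untreated P11 libraries, against 638, 617.6 and 710.1 CPM with DMSO. SDF2L1 measured 12.1, 16.8 and 13.7 CPM in untreated P11 libraries, against 2.66, 2.97 and 2.88 CPM with DMSO. Neither gene overlaps another gene of the table. The cause was not tested, and apart from showing this gap no level is compared across these sets. Of the 37 members 13 share part of their span with another gene on the same strand, and 24 do not. On the opposite strand 16 members overlap another gene, among them ERN1, EIF2AK3, CEBPB and HYOU1. The sources used here do not say whether counting used strand, so reads of such neighbours may enter. Members free of a same-strand overlap still include some of these, such as CEBPB and HYOU1. In bulk RNA, fewer cells expressing a gene and less RNA per cell cannot be told apart.

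The comparison of P33 with P3 sets the latest passage against the earliest. At P33, 16 of the 18 ATF4-arm genes rose and 0 fell, where 67.8% of all 16821 genes tested changed (34.5% rose and 33.3% fell). Their median log2 fold change was 0.975, beside 0 for all genes, with ASNS entered at 0. The ER folding arm split, with 9 of 16 genes rising, 7 falling and a median of 0.288, and all 3 sensors rose. Among members free of a same-strand overlap the counts were 11 of 12 ATF4-arm genes rising and 0 falling, and 7 of 10 ER genes rising and 3 falling. Beside this, 7 of 10 immediate early genes, which respond to handling among other things, rose and 1 fell, with a sum of 260 to 519 CPM at P33 and 244 to 265 CPM at P3, and all 8 proliferation markers fell. Their part in the result was not tested. Calls are from edgeR's quasi-likelihood test at a Benjamini-Hochberg adjusted p under 0.05.

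**Figure D1:**
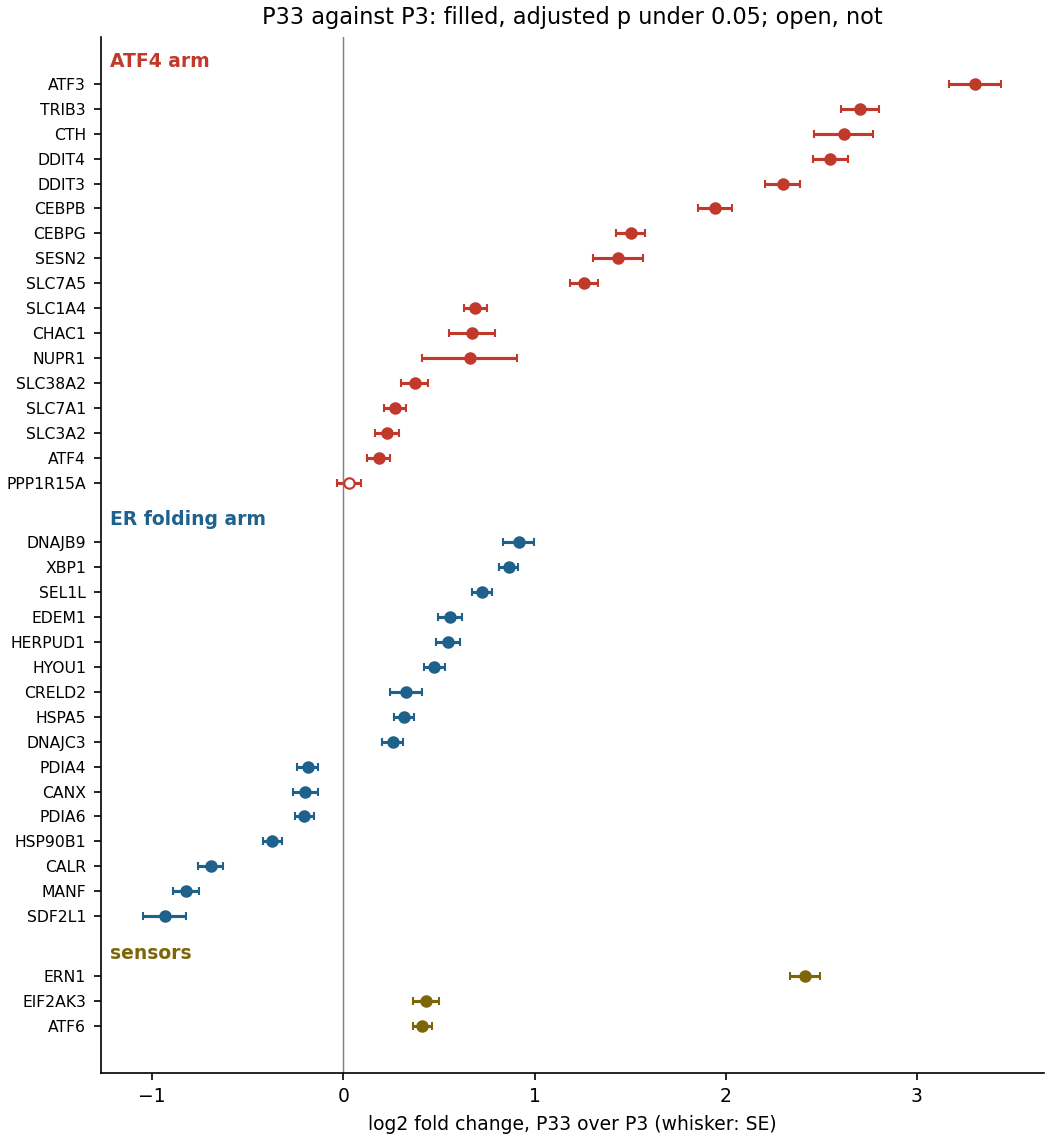
log2 fold change of 36 members, P33 over P3 (ASNS, with 0 counts, is not drawn), with its SE as a whisker (3 libraries a group), filled where the adjusted p was under 0.05 and open where not. ATF3, TRIB3, CTH and DDIT4 lie furthest right, and the lowest points are the ER genes SDF2L1, MANF and CALR.

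Among the transcription factors of the ATF4 arm, ATF4 itself changed least. ATF4 measured 275, 269 and 287 CPM at P33, against 261, 222 and 248 CPM at P3 (log2 fold change 0.19, SE 0.0594, adjusted p = 0.00666). The P33 libraries were all above the P3 libraries, but the call was lost without P3 replicate 2 (log2 fold change 0.11, adjusted p = 0.11). ATF3, a stress-induced repressor of the same bZIP class, measured 28.1, 23.4 and 26.8 CPM at P33, against 3.12, 2.23 and 2.55 CPM at P3. The groups were far apart, a 9.87-fold rise and the largest of any member in this comparison (log2 fold change 3.3, SE 0.136, adjusted p = 6.4e-20). DDIT3, which encodes the pro-apoptotic factor CHOP, measured 173, 230.4 and 209 CPM at P33, against 43.6, 39.5 and 41.2 CPM at P3 (log2 fold change 2.3, SE 0.091, adjusted p = 2.28e-20). Every P33 library was above every P3 library. DDIT3 shares 53.8% of its span with a gene on the same strand that had 0 reads in every library, and it also overlaps MARS1 and MBD6 on the opposite strand. Since the sources used here do not say whether counting used strand, reads of these neighbours cannot be told apart from those of DDIT3.

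The C/EBP partners of ATF4 rose as well. CEBPB, a C/EBP factor active in inflammation and senescence, measured 147, 133 and 159 CPM at P33, against 33.5, 38.6 and 42.1 CPM at P3 (log2 fold change 1.94, SE 0.0874, adjusted p = 5.65e-19). CEBPG, which forms heterodimers with ATF4 on CARE sequences such as the one printed above, measured 68.1, 68.7 and 78.9 CPM at P33, against 25.6, 23.2 and 27.4 CPM at P3 (log2 fold change 1.5, SE 0.0735, adjusted p = 5.19e-18). For both genes the lowest P33 library was above the highest P3 library. NUPR1, a small stress-induced chromatin protein, was called higher on 2.06, 1.79 and 1.45 CPM at P33 and 1.01, 1.62 and 0.638 CPM at P3, with overlapping libraries (log2 fold change 0.66, SE 0.249, adjusted p = 0.0197). That call rests on few reads and was lost without P3 replicate 1, P3 replicate 3 or P33 replicate 1 (log2 fold change 0.60, 0.42 and 0.52). NUPR1 had 22 to 27 counts in untreated P11 libraries and 609 to 1061 in DMSO libraries of the same passage. It shares 31.2% of its span with a gene on the same strand. Whether its passage counts reflect its expression was not tested.

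The effector genes of the arm rose too, with GADD34 as the exception. TRIB3, a pseudokinase induced by ATF4 and CHOP that restrains AKT, measured 48.8, 54.5 and 66.3 CPM at P33, against 8.11, 8.59 and 9.42 CPM at P3 (log2 fold change 2.7, SE 0.098, adjusted p = 2.29e-21). DDIT4, which encodes the mTORC1 inhibitor REDD1, measured 65.5, 60.1 and 70.1 CPM at P33, against 11.3, 10.9 and 11.3 CPM at P3 (log2 fold change 2.55, SE 0.093, adjusted p = 2.64e-21). SESN2, a leucine sensor that also restrains mTORC1, measured 12.9, 11.3 and 14.4 CPM at P33, against 5.54, 4.51 and 4.12 CPM at P3 (log2 fold change 1.43, SE 0.131, adjusted p = 2.09e-11). In all 3 genes the P33 libraries stood apart from and above the P3 libraries. CHAC1, which degrades glutathione, measured 11.5, 12.4 and 11.7 CPM at P33, against 7.25, 7.05 and 8.14 CPM at P3, a smaller but separate rise (log2 fold change 0.67, SE 0.12, adjusted p = 9.6e-06). PPP1R15A encodes GADD34, the subunit that directs phosphatase to eIF2 and so closes the response. It measured 363, 407 and 396 CPM at P33 and 397, 356 and 389 CPM at P3, with overlapping libraries and no call (log2 fold change 0.03, SE 0.0627, adjusted p = 0.708), although total counts as library sizes gave 0.23 (adjusted p = 0.0015).

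The metabolic part of the arm covers amino acid synthesis and transport. CTH, which makes cysteine from cystathionine, measured 7.25, 7.16 and 7.71 CPM at P33, against 1.13, 1.16 and 1.32 CPM at P3 (log2 fold change 2.62, SE 0.155, adjusted p = 5.82e-16). This was a 6.13-fold rise with no overlap. SLC7A5, the light chain of the leucine transporter LAT1, measured 96.1, 93.3 and 112 CPM at P33, against 39.9, 46.2 and 39.4 CPM at P3 (log2 fold change 1.26, SE 0.0745, adjusted p = 5.93e-16). Its heavy chain SLC3A2 (also called CD98) measured 95.5, 106 and 115 CPM at P33, against 91.3, 88.2 and 90.9 CPM at P3 (log2 fold change 0.23, SE 0.0616, adjusted p = 0.0016). Both chains were higher in every P33 library than in any P3 library. SLC1A4, a carrier of alanine, serine and cysteine, rose by 0.69 (log2, SE 0.0605). SLC38A2, which carries small neutral amino acids, measured 1128, 993 and 1128 CPM at P33, against 864, 817 and 828 CPM at P3, and rose by 0.37 (SE 0.0693). SLC7A1, which carries arginine and lysine, rose by 0.27 (SE 0.0592).

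ASNS, asparagine synthetase and a classic ATF4 target, could not be measured along passage. It had 0 counts in all 15 passage libraries. All but 11 of its bases lie inside the span of the long non-coding RNA gene ENSG00000284707 on the same strand. That gene had 267 to 285 counts in P33 libraries and 129 to 164 in P3 libraries. Which of those reads came from ASNS transcripts cannot be told apart.

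In the ER folding arm, 9 genes rose, from transcription factor to chaperone and degradation factor. DNAJB9 (ERdj4), a co-chaperone that holds IRE1 inactive, measured 45.7, 44.2 and 48.8 CPM at P33, against 22.5, 23.5 and 27.8 CPM at P3 (log2 fold change 0.92, SE 0.0822, adjusted p = 1.43e-11). XBP1, the transcription factor downstream of IRE1, measured 210, 214 and 223 CPM at P33, against 116, 117 and 122 CPM at P3 (log2 fold change 0.87, SE 0.0499, adjusted p = 3.15e-16). HERPUD1, a membrane scaffold of the degradation complex, measured 64.7, 62.7 and 60.2 CPM at P33, against 42.6, 40.6 and 45.5 CPM at P3 (log2 fold change 0.55, SE 0.0629, adjusted p = 3.52e-09). None of these 3 genes had overlapping groups. SEL1L, the adaptor of the ER ubiquitin ligase, rose by 0.72 (SE 0.0524), and EDEM1, which hands misfolded glycoproteins to degradation, rose by 0.56 (SE 0.0635). HSPA5 encodes BiP, the main ER chaperone of the HSP70 class. It measured 1324, 1336 and 1397 CPM at P33, against 1133, 1067 and 1056 CPM at P3 (log2 fold change 0.32, SE 0.0515, adjusted p = 2.22e-06), a rise of 1.25-fold. HYOU1, its nucleotide exchange factor, rose by 0.48 (SE 0.0572) and DNAJC3, its co-chaperone, by 0.26 (SE 0.0541). CRELD2, an ER disulfide protein, measured 22.3, 23.5 and 23.1 CPM at P33, against 16.7, 18.1 and 20.2 CPM at P3, and rose by 0.33 (SE 0.0818).

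The other 7 ER genes fell. SDF2L1, a BiP cofactor, measured 10.5, 10.5 and 11.3 CPM at P33, against 18.1, 18.7 and 25.5 CPM at P3 (log2 fold change -0.93, SE 0.111, adjusted p = 6.85e-09). MANF, a small secreted ER protein induced by ER stress, measured 39.7, 41.6 and 40.9 CPM at P33, against 68.3, 73.3 and 74.8 CPM at P3 (log2 fold change -0.82, SE 0.0663, adjusted p = 1.17e-12). CALR, the lectin chaperone calreticulin, measured 1397, 1460 and 1302 CPM at P33, against 2245, 2213 and 2270 CPM at P3 (log2 fold change -0.69, SE 0.0644, adjusted p = 3.26e-11). All P33 libraries were below all P3 libraries for these genes. HSP90B1, the ER HSP90 also called GRP94, measured 1271, 1283 and 1265 CPM at P33, against 1674, 1605 and 1661 CPM at P3 (log2 fold change -0.37, SE 0.0508, adjusted p = 1.09e-07). PDIA6, a disulfide isomerase, measured 449, 428 and 440.3 CPM at P33, against 502, 503 and 512 CPM at P3, and fell by 0.2 (SE 0.0486). CANX, the membrane-bound partner of calreticulin, fell by 0.2 (SE 0.0632) and PDIA4, another isomerase, by 0.19 (SE 0.0546). These last 3 falls depended on scaling: with total counts as library sizes none was called, and PDIA4 turned to 0.00896 on the log2 scale (adjusted p = 0.93).

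ERN1 moved most among the sensors. ERN1, the gene of IRE1, measured 52.7, 53.6 and 59.3 CPM at P33, against 11, 9.75 and 10.2 CPM at P3 (log2 fold change 2.42, SE 0.077, adjusted p = 7.71e-23), a 5.34-fold rise without overlap. EIF2AK3, the gene of PERK, measured 56.2, 49.6 and 50.1 CPM at P33, against 38.7, 38.1 and 38.7 CPM at P3 (log2 fold change 0.43, SE 0.066, adjusted p = 7.89e-07). ATF6 measured 121, 122 and 117 CPM at P33, against 91.7, 89.9 and 88.5 CPM at P3 (log2 fold change 0.41, SE 0.0502, adjusted p = 1.14e-08). In both genes the libraries of the passages stood apart, at folds of 1.35 and 1.33.

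**Figure D2:**
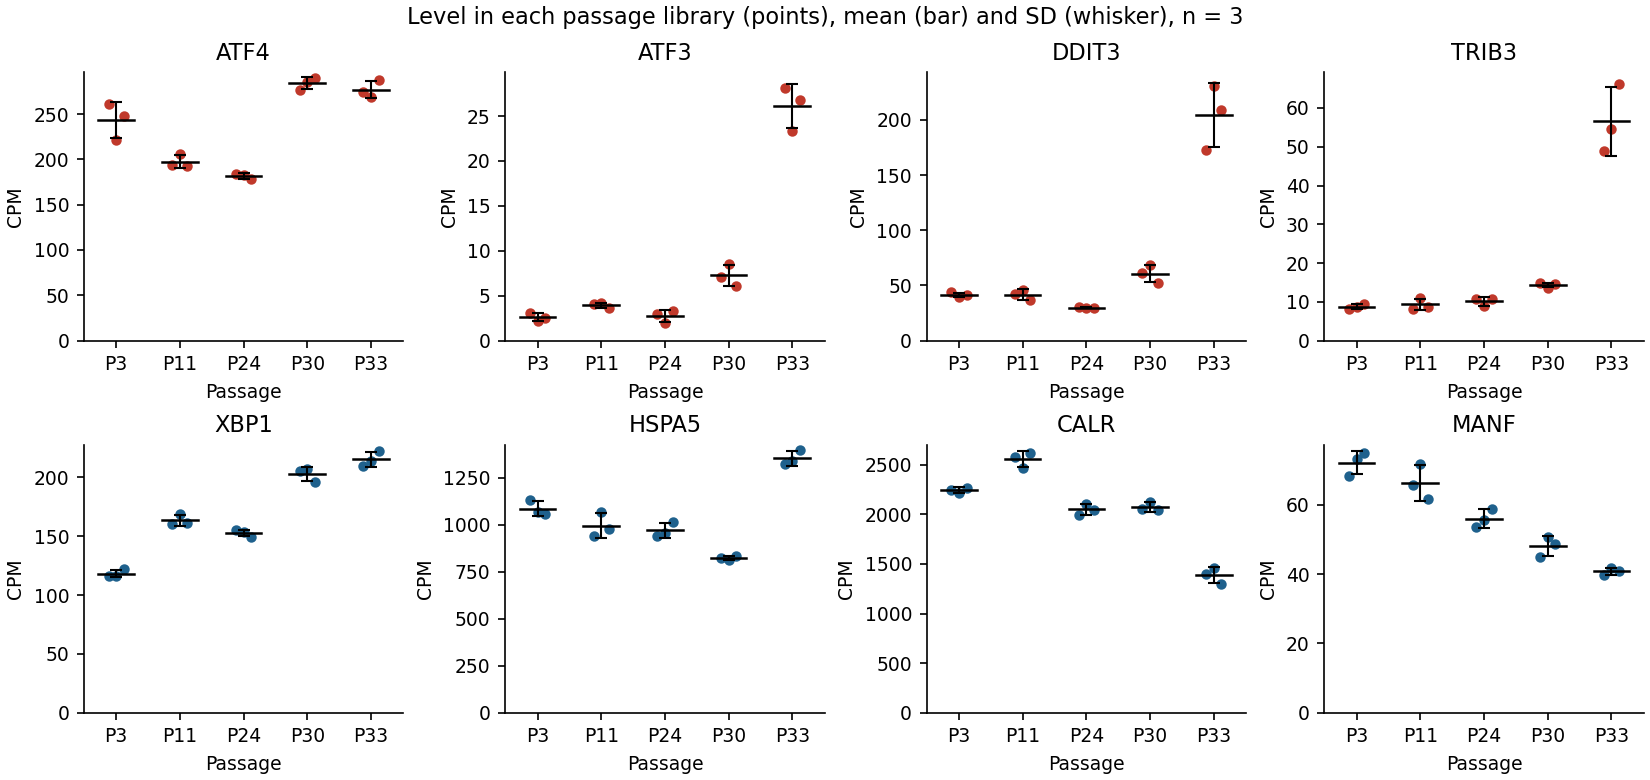
Level in CPM (vertical axis, from 0) by passage for 8 members, with 1 point per library, the mean as a bar and the SD as a whisker (n = 3). ATF3, DDIT3, TRIB3 and HSPA5 have their highest libraries at P33, while CALR and MANF have their lowest there.

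Along the 5 passages the ATF4 arm did not climb evenly. Of 17 ATF4-arm genes with reads, 16 had their highest group mean at P33 and ATF4 had it at P30, while 7 had their lowest mean at P24. Among 16 ER genes, 7 peaked at P33, 6 at P11, 2 at P3 and 1 at P30. Over all 16137 genes with reads along passage, 27.4% peaked at P33, 15.9% at P11, 28.2% at P3 and 17.8% at P30, and 11.6% were lowest at P24. The steps that follow share libraries (P11, P24 and P30 each enter 2 of them), so their counts are given side by side and are not independent of each other.

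**Figure D3:**
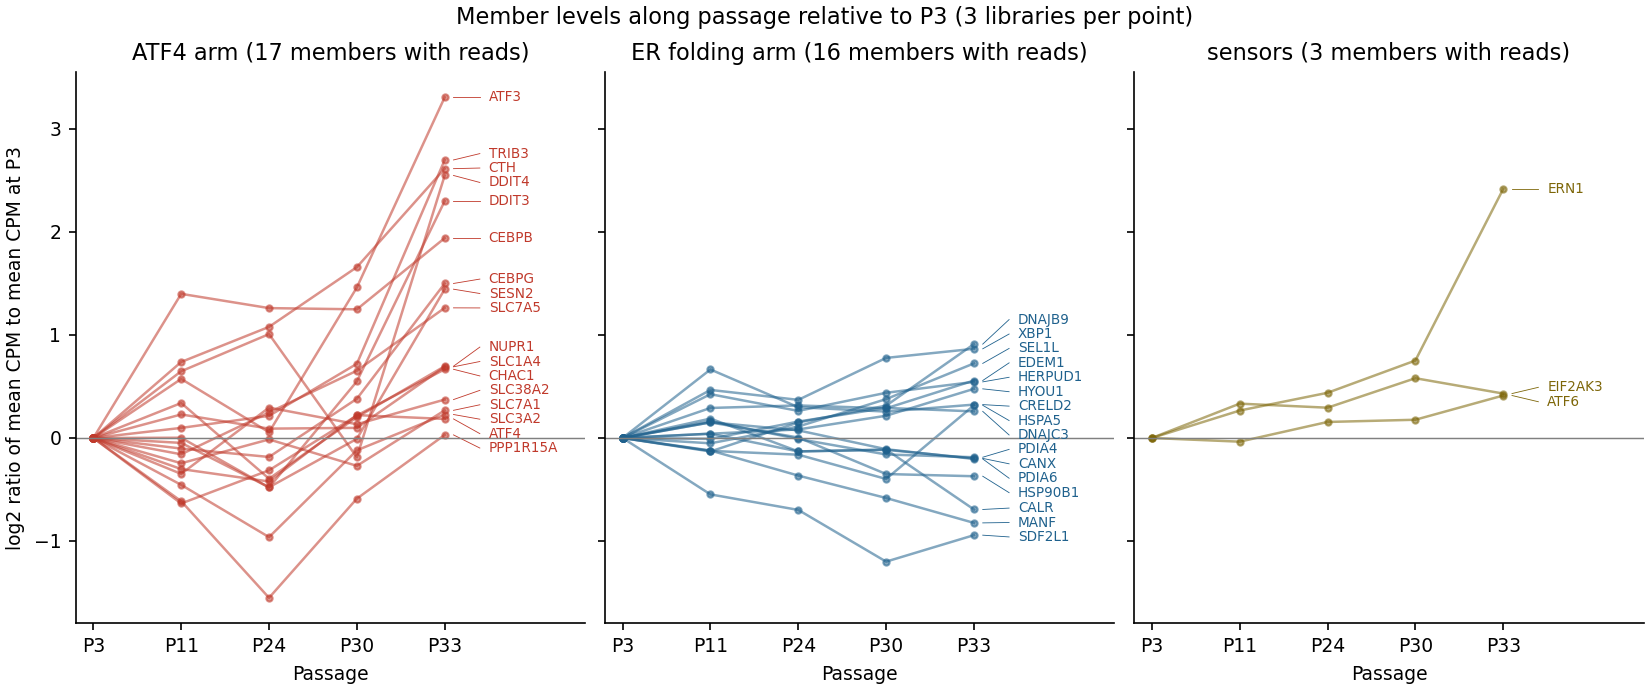
log2 ratio of each member's mean CPM to its mean at P3 (3 libraries per point), by passage, for the ATF4 arm, the ER folding arm and the sensors. Gene names are spread apart at the right and joined to their lines. Most ATF4-arm lines lie near or below 0 at P24 and above it at P33, and the ER lines spread to both sides.

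The first step was P11 against P3. There, 5 of 18 ATF4-arm genes rose and 6 fell, where 46.5% of all genes changed (22.9% rose and 23.6% fell), and the median was -0.021. In the ER arm 8 genes rose (5 with no filter on low counts), 2 fell and the median was 0.097. CEBPB led the rises with 97.2, 109 and 94.7 CPM at P11, against the P3 values given above (log2 fold change 1.4, SE 0.0882, adjusted p = 4.99e-14). CTH followed with 2.04, 1.77 and 2.21 CPM at P11 (log2 fold change 0.73, SE 0.197, adjusted p = 0.00263), and CRELD2 with 26.1, 32.4 and 28.8 CPM at P11 (log2 fold change 0.67, SE 0.0814, adjusted p = 4.03e-08). In these 3 genes every P11 library exceeded every P3 library. CHAC1 fell to 3.87, 5.71 and 4.87 CPM at P11 (log2 fold change -0.63, SE 0.14, adjusted p = 0.000416), PPP1R15A to 255, 243 and 248 CPM (log2 fold change -0.61, SE 0.0634, adjusted p = 1.92e-09) and SDF2L1 to 12.1, 16.8 and 13.7 CPM (log2 fold change -0.53, SE 0.11, adjusted p = 0.00015). All P11 libraries were below the P3 libraries in each. ATF4 stood at 194, 206 and 193 CPM at P11, below all P3 libraries, and fell by 0.3 (SE 0.0599). Of the sensors ERN1, with 12.7, 11.8 and 12.7 CPM at P11, and EIF2AK3, with 48.4, 48.1 and 49.1 CPM, rose, by 0.26 (SE 0.09) and 0.33 (SE 0.0671). The ERN1 call was lost without P3 replicate 2, P11 replicate 1 or P11 replicate 3 (adjusted p = 0.0829, 0.0633 and 0.052), and the ER falls numbered 1, not 2, without P3 replicate 1 or 2 or P11 replicate 1 or 3.

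P24 against P11 gave falls and rises in both arms. Of the ATF4 arm 4 genes rose and 5 fell, where 33.6% of all genes changed (16.0% rose and 17.7% fell), and the median was -0.101. In the ER arm 3 rose and 7 fell, with a median of -0.122. SLC38A2 rose most, with 1019, 919 and 1141 CPM at P24, against 658, 636 and 677 CPM at P11 (log2 fold change 0.64, SE 0.0697, adjusted p = 5.78e-09). SLC7A5 measured 48.7, 45.2 and 55.1 CPM at P24, against 35.4, 38.6 and 38.4 CPM at P11 (log2 fold change 0.41, SE 0.0793, adjusted p = 0.000116), and DDIT4 measured 21.2, 22.3 and 23.8 CPM at P24, against 20.3, 15 and 17.1 CPM at P11 (log2 fold change 0.36, SE 0.0986, adjusted p = 0.00408). The P24 libraries were above the P11 libraries in all 3. PPP1R15A fell again, to 122, 139.5 and 128 CPM at P24 (log2 fold change -0.94, SE 0.0652, adjusted p = 2.68e-13), its lowest passage. SLC3A2 measured 49.96, 46 and 42.8 CPM at P24, against 65, 68.9 and 63.3 CPM at P11 (log2 fold change -0.51, SE 0.0665, adjusted p = 2.17e-07), and ATF3 measured 2.96, 1.95 and 3.31 CPM at P24, against 4.02, 4.14 and 3.6 CPM at P11 (log2 fold change -0.51, SE 0.187, adjusted p = 0.0333). In these falls too the groups did not overlap. The LAT1 chains SLC7A5 and SLC3A2 moved in opposite directions at this step. CALR measured 1996, 2104 and 2047 CPM at P24, against 2580, 2464 and 2622 CPM at P11, and fell by 0.32 (SE 0.0642). Single libraries decided several of these calls. Without P11 replicate 2 the counts were 3 ATF4-arm falls, 1 ER rise and 4 ER falls, and ATF3 (adjusted p = 0.102) and DDIT4 (0.0605) were not called. ATF3 was also lost without P11 replicate 1 (0.0809) or P24 replicate 2 (0.217). Without P24 replicate 2 the ATF4-arm falls numbered 3, and the ER falls numbered 4 without P11 replicate 1, P24 replicate 1 or P24 replicate 3.

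At P30 the ATF4 arm turned upward. In P30 against P24, 11 of 18 genes rose and 2 fell, where 35.1% of all genes changed (18.0% rose and 17.1% fell), and the median was 0.507. The ER arm had 3 rises, 6 falls and a median of -0.004. ATF3 measured 7.13, 8.52 and 6.12 CPM at P30, against the P24 values above (log2 fold change 1.41, SE 0.169, adjusted p = 3.89e-08). DDIT3 measured 61.3, 68.3 and 52.4 CPM at P30, against 30.3, 29.6 and 29.3 CPM at P24 (log2 fold change 1.04, SE 0.0982, adjusted p = 2.52e-10), and PPP1R15A measured 250.1, 278 and 231 CPM at P30 (log2 fold change 0.96, SE 0.0653, adjusted p = 9.55e-14). For each gene the P30 libraries were above the P24 libraries. The mean of ATF4 was at its highest here, with 277, 286 and 289.6 CPM at P30, against 184, 183 and 178 CPM at P24 (log2 fold change 0.64, SE 0.0603, adjusted p = 1.99e-10). DDIT4 went against the arm and fell to 11.9, 7.89 and 9.61 CPM at P30, against 21.2, 22.3 and 23.8 CPM at P24 (log2 fold change -1.2, SE 0.11, adjusted p = 1.12e-10). SLC7A1 was the other ATF4-arm gene to fall, by 0.26 (SE 0.0613). SLC38A2 was not called (log2 fold change -0.16, adjusted p = 0.0694). It was called lower with total counts, with no filter, with a filter of 5 CPM, with passage libraries alone and without P24 replicate 2. The SESN2 rise was lost with total counts (adjusted p = 0.0647). It was also lost without P24 replicate 2 or 3 or P30 replicate 1, 2 or 3 (adjusted p = 0.0523 to 0.0947). SDF2L1 measured 9.39, 9.31 and 8.37 CPM at P30, against 12.8, 11.5 and 14 CPM at P24 (log2 fold change -0.5, SE 0.127, adjusted p = 0.00223), and HSP90B1 measured 1245, 1349 and 1282 CPM at P30, against 1669, 1687 and 1599 CPM at P24 (log2 fold change -0.35, SE 0.0509, adjusted p = 1.07e-06). Both ER genes were lower in every P30 library. HSPA5 also fell, by 0.24 (SE 0.0517), to 822, 814 and 836 CPM at P30, against 940.1, 956 and 1014 CPM at P24, while XBP1 measured 205, 207 and 196 CPM at P30, against 155, 154 and 149.7 CPM at P24, and rose by 0.41 (SE 0.0499). Summed CPM of the 10 immediate early genes was 351 to 673 at P30 and 168 to 224 at P24, and its part in these rises was not tested.

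The last step had the largest median of the 4 steps for the ATF4 arm. In P33 against P30, 15 of 18 genes rose and 0 fell, where 48.4% of all genes changed (23.6% rose and 24.8% fell), and the median was 0.611. In the ER arm 5 rose, 2 fell and the median was 0.077. DDIT4, low at P30, rose most (log2 fold change 2.74, SE 0.1, adjusted p = 1.03e-20). TRIB3 measured 14.9, 13.7 and 14.5 CPM at P30 and ranked next (log2 fold change 1.98, SE 0.0963, adjusted p = 1.35e-17), followed by ATF3 (log2 fold change 1.83, SE 0.123, adjusted p = 5.01e-14) and DDIT3 (log2 fold change 1.74, SE 0.0899, adjusted p = 6.04e-17). None of these 4 genes had overlapping libraries. ERN1 measured 17.2, 17 and 17.9 CPM at P30 and rose by 1.67 (SE 0.0755), while EIF2AK3 measured 54.3, 58.3 and 60.1 CPM at P30 and was not called (log2 fold change -0.15, SE 0.0659, adjusted p = 0.067). Without P30 replicate 1 or P33 replicate 1 EIF2AK3 was called lower (log2 fold change -0.19 and -0.21). SESN2, with 4.81, 4.47 and 4.81 CPM at P30, rose by 1.46 (SE 0.14), whereas ATF4 was not called (log2 fold change -0.04, SE 0.0596, adjusted p = 0.66). HSPA5 was the ER gene with the largest rise, 0.72 (SE 0.0519), and DNAJB9, with 28.5, 34 and 29.2 CPM at P30, came next with 0.59 (SE 0.0834). CALR measured 2052, 2128 and 2044 CPM at P30 and fell by 0.58 (SE 0.0644), and MANF measured 45, 50.8 and 48.7 CPM at P30 and fell by 0.24 (SE 0.0694). They were the ER-arm genes that fell. All 8 proliferation markers rose at this step as well, with a median of 0.468, and whether this bears on the module was not tested. The ER count rested on scaling, with 12 rises in place of 5 when total counts served as library sizes, and the MANF fall was not called with them (adjusted p = 0.387). Total counts also moved the median of all genes from 0 to 0.137, so the 12 rises cannot be set beside the 23.6% given above.

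Values between these turning points complete the course of the leading members. TRIB3 measured 8.25, 11 and 8.72 CPM at P11 and 10.6, 8.84 and 10.8 CPM at P24, neither step being called. SESN2 measured 3.81, 5.91 and 3.98 CPM at P11 and 3.64, 3.26 and 3.27 CPM at P24. DDIT3 measured 41.8, 46.2 and 36.5 CPM at P11, overlapping its P3 values. At P24 against P11, DDIT3 fell by 0.49 (SE 0.1) and SESN2 by 0.45 (SE 0.171). The SESN2 call was lost without P11 replicate 2 (adjusted p = 0.45) or P24 replicate 1, 2 or 3 (adjusted p = 0.0505, 0.0967 and 0.117). CHAC1 measured 4.89, 5.42 and 7.75 CPM at P24 and 9.12, 8.63 and 8.37 CPM at P30, and CEBPB measured 92, 84.1 and 97.6 CPM at P24 and 87.5, 96.9 and 87.1 CPM at P30. Among ER genes, XBP1 measured 160.3, 169 and 161 CPM at P11 and had already risen against P3 by 0.47 (SE 0.0502). HSPA5 measured 939, 1067 and 979.7 CPM at P11, and HSP90B1 measured 1909, 1807 and 1770 CPM at P11. DNAJB9 measured 20.5, 21.9 and 25 CPM at P11 and 26.7, 27.8 and 27.4 CPM at P24, the P11 libraries overlapping those of P3. HERPUD1 measured 56.6, 58.1 and 58 CPM at P11, 51.8, 52.9 and 49.6 CPM at P24 and 57.5, 62.5 and 54.3 CPM at P30, every one of them above its P3 libraries. MANF measured 65.6, 71.8 and 61.6 CPM at P11 and 53.5, 55.7 and 58.8 CPM at P24, between its P3 and P30 levels in the mean. Of the sensors, ATF6 measured 88, 83.8 and 91.7 CPM at P11, 98.9, 101 and 101 CPM at P24 and 101, 100.4 and 104 CPM at P30. ERN1 measured 12.8, 13.8 and 15.4 CPM at P24 and EIF2AK3 measured 48.1, 46 and 47.6 CPM at P24. Up to P30 no ERN1 library reached 18 CPM.

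The arms can also be set side by side within each library. Averaged over members as log2(CPM + 0.1) and set relative to P3, the 17 ATF4-arm genes ran from 0.039 up to 0.102 in P11 libraries, from -0.1 up to 0.064 in P24 libraries, from 0.334 up to 0.395 in P30 libraries and from 1.285 up to 1.396 in P33 libraries. The 16 ER genes ran from 0.075 up to 0.13 in P11 libraries, from 0.013 up to 0.031 in P24 libraries, from -0.037 up to 0.05 in P30 libraries and from 0.088 up to 0.105 in P33 libraries. The ATF4 arm minus the ER arm was thus 0.345 to 0.404 in the P30 libraries and 1.197 to 1.291 in the P33 libraries, while in P11 and P24 libraries it ran from -0.123 to 0.033. Without members that overlap a gene on the same strand, the arms at P33 lay at 1.193 to 1.352 (ATF4, 12 genes) and 0.203 to 0.256 (ER, 10 genes), and the difference was 0.99 to 1.096. The ER level at P33 thus depended on which members entered. An arm's mean hides opposite moves within it, as in the ER arm at P33.

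**Figure D4:**
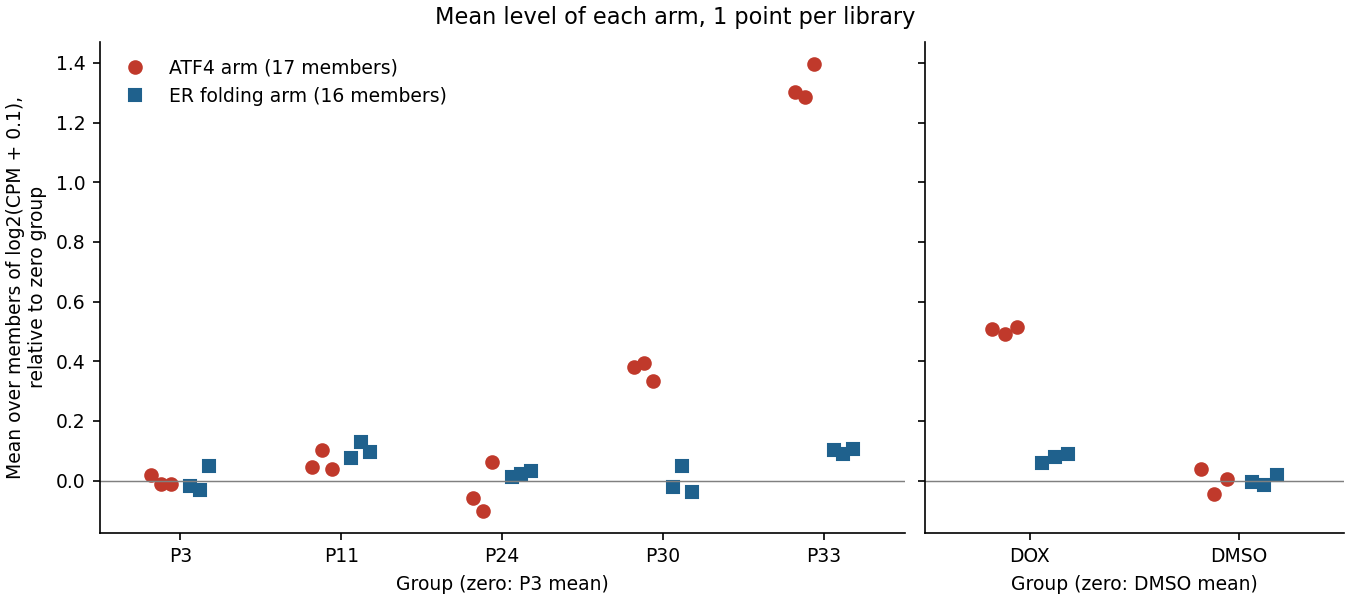
Mean over members of log2(CPM + 0.1), relative to the mean of the P3 libraries (left) or of the DMSO libraries (right), 1 point per library, circles for the ATF4 arm and squares for the ER folding arm. The ATF4 points reach 1.285 to 1.396 at P33 and 0.492 to 0.516 with DOX, while no ER point exceeds 0.13.

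DOX against DMSO asks what a DNA-damaging drug does to the same genes at P11. With DOX, 13 of 18 ATF4-arm genes rose and 2 fell, where 37.3% of all genes changed (16.7% rose and 20.6% fell). The median was 0.681, beside -0.009 for all genes. In the ER folding arm 6 of 16 genes rose, 1 fell and the median was 0.084, and of the sensors ERN1 and EIF2AK3 rose. Among members free of a same-strand overlap, 8 of 12 ATF4-arm genes rose and 2 fell, and 5 of 10 ER genes rose and 0 fell. Of the proliferation markers 7 of 8 fell and 1 rose with DOX, and their part in the result was not tested.

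**Figure D5:**
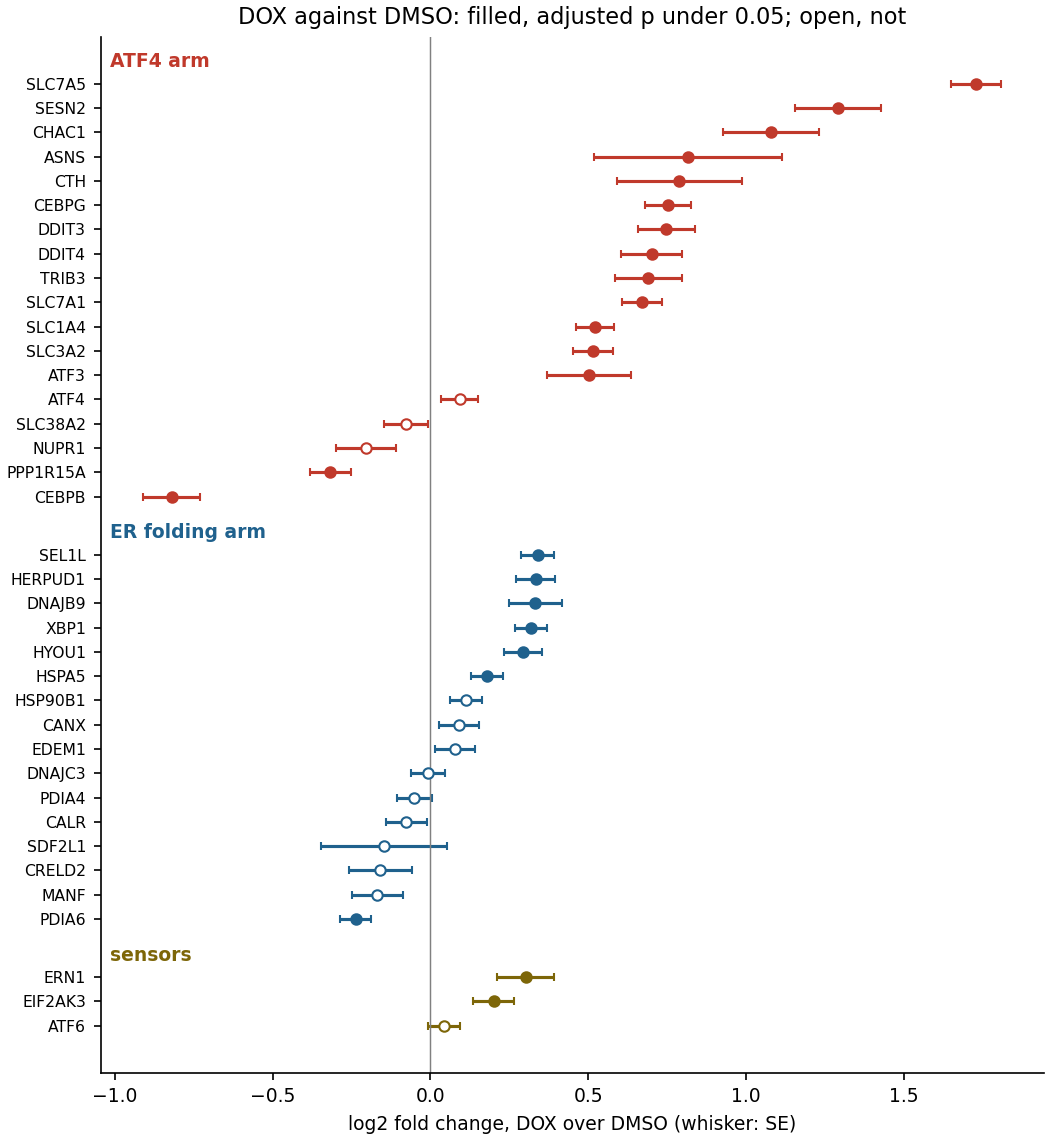
log2 fold change of each of the 37 members, DOX over DMSO, with its SE as a whisker (3 libraries a group), filled where the adjusted p was under 0.05. SLC7A5 and SESN2 lie furthest right, and CEBPB furthest left.

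Among the amino acid transport and synthesis genes was the largest rise of any member with DOX, that of SLC7A5. SLC7A5 measured 96.1, 92.7 and 94.1 CPM with DOX, against 26.8, 29.8 and 29.1 CPM with DMSO, a 3.31-fold rise (log2 fold change 1.73, SE 0.0792, adjusted p = 3.28e-18). SLC3A2 measured 87.7, 93.6 and 89.9 CPM with DOX, against 62.2, 64.5 and 63.1 CPM with DMSO (log2 fold change 0.52, SE 0.064, adjusted p = 5.96e-08). Both chains of the transporter were higher in all DOX libraries. SLC7A1 rose by 0.67 (SE 0.0633) and SLC1A4 by 0.52 (SE 0.061), while SLC38A2 was not called, with 726, 769.9 and 643 CPM with DOX and 817, 737 and 701 CPM with DMSO. CTH measured 2.42, 1.76 and 2.29 CPM with DOX, against 1.4, 1.21 and 1.12 CPM with DMSO (log2 fold change 0.79, SE 0.198, adjusted p = 0.00176). ASNS, which had reads in these libraries, measured 1.25, 1.41 and 1.53 CPM with DOX, against 0.947, 0.606 and 0.763 CPM with DMSO (log2 fold change 0.82, SE 0.299, adjusted p = 0.0358). These were only 28 to 31 counts with DOX and 10 to 21 with DMSO. The call was lost with DESeq2 (adjusted p = 0.157) and with no filter on low counts (adjusted p = 0.0998). It was also lost when any 1 library other than DMSO replicate 1 was left out (adjusted p = 0.0515 at the lowest and 0.128 at the highest). The overlap of ASNS with ENSG00000284707 holds here too, and that gene had 19 to 29 counts with DOX and 17 to 25 with DMSO.

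The regulators split. SESN2 measured 14.4, 11 and 12.2 CPM with DOX, against 5.59, 4.79 and 4.99 CPM with DMSO (log2 fold change 1.29, SE 0.136, adjusted p = 1.91e-09), and CHAC1 measured 6.82, 7.38 and 7.44 CPM with DOX, against 3.07, 3.28 and 3.93 CPM with DMSO (log2 fold change 1.08, SE 0.152, adjusted p = 6.43e-07). In neither gene did the groups overlap. DDIT3 measured 92.5, 108 and 114 CPM with DOX, against 63.2, 59.2 and 64.7 CPM with DMSO (log2 fold change 0.75, SE 0.0896, adjusted p = 3.06e-08), beside a rise of its opposite-strand neighbour MARS1 by 0.57 (log2). TRIB3 measured 19.7, 18.7 and 19.2 CPM with DOX, against 11.3, 12.1 and 12.4 CPM with DMSO (log2 fold change 0.69, SE 0.106, adjusted p = 2.61e-06), and ATF3 measured 10.5, 9.18 and 10.8 CPM with DOX, against 8.47, 6.25 and 6.57 CPM with DMSO (log2 fold change 0.5, SE 0.133, adjusted p = 0.00302). DDIT4 measured 25.9, 27.9 and 28.9 CPM with DOX, against 16.1, 16.5 and 18.3 CPM with DMSO, and rose by 0.7 (SE 0.0963). CEBPG rose by 0.75 (SE 0.0724). All of these had every DOX library above every DMSO library. ATF4 was not called, with 651, 713 and 734 CPM with DOX and 638, 617.6 and 710.1 CPM with DMSO in overlapping groups (log2 fold change 0.09, SE 0.0584, adjusted p = 0.22), and neither was NUPR1, with 39.6, 37.6 and 36 CPM with DOX and 47.8, 46.8 and 35.7 CPM with DMSO. NUPR1 was called lower without DMSO replicate 3 (adjusted p = 0.00613).

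The 2 falls in the ATF4 arm were CEBPB and PPP1R15A. CEBPB fell to 40.1, 48.2 and 37.2 CPM with DOX, against 77.8, 66.1 and 77.1 CPM with DMSO (log2 fold change -0.82, SE 0.0891, adjusted p = 3.98e-09). PPP1R15A fell to 139.9, 139 and 157 CPM with DOX, against 185, 177 and 181 CPM with DMSO (log2 fold change -0.32, SE 0.0649, adjusted p = 0.00018). All DOX libraries were below all DMSO libraries in both. For CEBPB the direction was opposite to that at P33 against P3, a difference between the contrasts that was not tested.

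The rises of ER genes with DOX were small, and SEL1L had the largest, 0.34 on the log2 scale (SE 0.0524). HERPUD1 measured 69.7, 79.6 and 73.4 CPM with DOX, against 55.7, 57.6 and 63.6 CPM with DMSO (log2 fold change 0.33, SE 0.0622, adjusted p = 5.47e-05), and DNAJB9 measured 38, 37.9 and 31.5 CPM with DOX, against 30.8, 26.1 and 28.2 CPM with DMSO (log2 fold change 0.33, SE 0.0846, adjusted p = 0.00204). XBP1 measured 182, 181 and 196 CPM with DOX, against 151, 142 and 155 CPM with DMSO (log2 fold change 0.32, SE 0.0498, adjusted p = 3.77e-06). These genes did not overlap between groups. HYOU1 rose by 0.29 (SE 0.0599), and HSPA5 measured 1027, 1014 and 1037 CPM with DOX, against 918, 879 and 921 CPM with DMSO, and rose by 0.18 (SE 0.0516). PDIA6 was the ER gene that fell, to 328, 348 and 306 CPM with DOX, against 395, 371 and 391 CPM with DMSO (log2 fold change -0.24, SE 0.049, adjusted p = 0.000219). HSP90B1, with 1789, 1810 and 1946 CPM with DOX and 1768, 1674 and 1683 CPM with DMSO, was not called, nor was MANF with 19, 19.8 and 18.9 CPM with DOX and 19.8, 20.6 and 24.7 CPM with DMSO. HSP90B1 was called higher with DESeq2 (adjusted p = 0.018), with total counts (0.0426) and with a filter of 5 CPM in 3 libraries (0.0248), and MANF lower without DMSO replicate 1 (adjusted p = 0.0363), so that the ER falls then numbered 2. CALR measured 1631, 1647 and 2062 CPM with DOX and 1885, 1810 and 1933 CPM with DMSO, and was not called except without DOX replicate 3, when it was called lower (log2 fold change -0.20, adjusted p = 0.0049), and the ER falls again numbered 2. SDF2L1, with 2.66, 2.66 and 2.29 CPM with DOX and 2.66, 2.97 and 2.88 CPM with DMSO, and CRELD2, with 9.48, 10.7 and 10.6 CPM with DOX and 11, 11.8 and 11.5 CPM with DMSO, were not called. ERN1 measured 13.7, 14.4 and 11.6 CPM with DOX, against 10.5, 10.8 and 11 CPM with DMSO (log2 fold change 0.3, SE 0.0902, adjusted p = 0.00796), and EIF2AK3 measured 61, 57.6 and 53.3 CPM with DOX, against 54.8, 50.03 and 44.7 CPM with DMSO, with overlapping libraries (log2 fold change 0.2, SE 0.0657, adjusted p = 0.0158). The ERN1 call was lost without DOX replicate 2 (adjusted p = 0.0523), and that of EIF2AK3 without DOX replicate 1 (0.126) or DMSO replicate 3 (0.174). ATF6 was not called, with 109, 109 and 105 CPM with DOX and 110.1, 105 and 97.5 CPM with DMSO.

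Genes outside the 37 that belong to the same pathways were counted in lists. Of 11 serine, proline and folate enzymes placed under ATF4, 8 rose and 1 fell at P33 against P3 (median 0.534), where 34.5% of all genes rose and 33.3% fell. With DOX 10 of the 11 rose and 0 fell (median 0.82), where 16.7% of all genes rose and 20.6% fell. The same shares apply to each list that follows. PSAT1, a serine synthesis enzyme, averaged 97.4 ± 6.8 CPM at P33 and 16.2 ± 0.453 CPM at P3 (mean ± SD, n = 3 each), and 127 ± 7.73 CPM with DOX and 37.5 ± 2.88 CPM with DMSO. MTHFD2, a mitochondrial folate enzyme, averaged 146 ± 7.9 CPM at P33 and 54 ± 0.787 CPM at P3, and 169.5 ± 11.1 CPM with DOX and 75.6 ± 2.13 CPM with DMSO. All 4 of these differences passed the test. Of 14 other ATF4 or CHOP targets tested, 11 rose and 3 fell at P33, and 9 rose and 3 fell with DOX. SLC7A11, the cystine importer, averaged 187 ± 6.96 CPM at P33 and 20.6 ± 1.31 CPM at P3, and 225 ± 25.1 CPM with DOX and 64.1 ± 4.5 CPM with DMSO. GDF15, a stress-induced secreted factor, averaged 138 ± 12 CPM at P33 and 26.4 ± 3.51 CPM at P3, and 30.2 ± 2.5 CPM with DOX and 17.1 ± 1.33 CPM with DMSO. Both genes rose in each contrast. With DOX, SLC43A1 of the same list fell, averaging 7.83 ± 1.03 CPM with DOX and 15.98 ± 0.1445 CPM with DMSO. Its change (log2 fold change -1.04) was larger in size than that of GDF15 (0.83).

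Of the aminoacyl-tRNA synthetases, many of which are ATF4 targets, 8 of 20 rose and 10 fell at P33 (median -0.064), where 34.5% of all genes rose and 33.3% fell. With DOX, where 16.7% of all genes rose and 20.6% fell, 14 rose and 2 fell (median 0.225). WARS1 averaged 322 ± 9.16 CPM at P33 and 130.1 ± 2.91 CPM at P3, while QARS1 averaged 97.2 ± 3.89 CPM at P33 and 196 ± 4.21 CPM at P3. IARS1 averaged 287 ± 17.4 CPM with DOX and 162 ± 5.47 CPM with DMSO. Among the eIF2 kinases, eIF2 subunits, exchange factor and phosphatase genes, 2 of 16 rose and 10 fell at P33, and 4 rose and 2 fell with DOX. EIF2AK2, the kinase PKR, averaged 259 ± 16.8 CPM at P33 and 132 ± 17.5 CPM at P3. Of 20 further ER folding factors 10 rose and 5 fell at P33, and 4 rose and 3 fell with DOX. Of 15 further ER-associated degradation genes 5 rose and 5 fell at P33, and 4 rose and 0 fell with DOX. The counts of the degradation genes at P33 lie near the shares of all genes. These lists were chosen with earlier results of the data known, so their counts are descriptions.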

How the data were processed

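RNA had been poly(A)-selected, primed with random hexamers, amplified by 18 PCR cycles and read on a DNBSEQ-T7, per the labels' protocols. The authors deposited 1 table of whole-number read counts per gene, not normalized. The submitters' processing notes name HISAT2 2.1.0, featureCounts 2.0.1 of the Subread package, cutadapt 3.3, FastQC 0.11.9, SAMtools 1.11 and DESeq2 1.34.0, and the builds GRCh38.p13 and hg38. The options used are not stated there.

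Counts were analysed in R 4.3.3 with edgeR 4.0.16 and limma 3.58.1. A minimum count of 10 (filterByExpr) kept 16821 of 61544 genes. CPM use TMM-scaled library sizes. All 21 libraries entered 1 quasi-likelihood model with the 7 groups as its terms (14 residual degrees of freedom, biological coefficient of variation 5.48%), with two-sided tests adjusted by Benjamini-Hochberg over 16821 genes and calls at an adjusted p under 0.05. The fit was also run on simulated counts in which few genes changed, as many up as down, so that run does not test the scaling. Members and lists were chosen with earlier results of these data known. Values in every library are given for 14 preset members, the 3 sensors and, per comparison, up to 3 called members with the largest rise and fall; from each other list, up to 3 called genes with the largest change could be named. MARS1 appears as a neighbour of DDIT3. Alternatives were DESeq2 1.42.0, other size factors, other filters, libraries of the same part of the table alone, a replicate block and leaving out each library. No 2 libraries of a group agreed within sampling noise.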

Additional observations from a re-analysis of the deposited data

How the results depend on the processing

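Of 2875 values of single members recomputed under other settings, 2730 kept their side of the threshold, 104 lost the call and 40 gained it. The other 1 reversed, PDIA4 at P33 against P3 with total counts (0.00896, adjusted p = 0.93). Direction was checked only for values called in the fit reported above. HSP90B1, DNAJC3 and PDIA4 at P33 against P30 were negative and not called in that fit, but were called higher with total counts. ASNS had 0 counts along passage, so its values there could not change. Total counts shifted the median of all genes by 0.183 at P33 against P3, 0.102 at P11 against P3 and 0.137 at P33 against P30. With them the ER falls were 4, not 7, at P33 against P3 and 1, not 2, at P11 against P3, and at P33 against P30 the ER arm had 12 rises and 1 fall. The shares of all genes given above belong to TMM scaling and cannot be set beside these counts. A filter of 5 CPM in 3 libraries gave 4 ER falls at P33 against P3, 1 at P11 against P3 and 4 at P24 against P11, and 8 ER rises at P33 against P30. No filter gave 5 ER rises at P11 against P3 and 4 ER falls at P24 against P11. The cause was not tested.

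Leaving out 1 library gave 1 to 3 ER falls at P11 against P3, and 3 to 5 ATF4-arm falls, 1 to 3 ER rises and 4 to 6 ER falls at P24 against P11. ATF4-arm rises stayed at 15 to 16 for P33 against P3, 15 for P33 against P30 and 12 to 13 for DOX, where ER falls were 1 to 2. Members without a same-strand overlap, an alternative chosen after seeing the data, are fewer by construction: ER falls were 3 at P33 against P3, 3 at P24 against P11, 1 at P33 against P30 and 0 with DOX, ER rises 4 and ATF4-arm rises 3 at P11 against P3, and ATF4-arm rises 8 with DOX.

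The labels number replicates alike in all groups and do not state whether same-numbered libraries are paired. Deviations of same-numbered libraries from their group means correlated at -0.31 to 0.126. With 3 libraries a group, such correlations cannot settle whether the numbers pair libraries. A fit with the replicate number as a block gave 1 ER fall at P11 against P3 (HSPA5, adjusted p = 0.0542), lost HERPUD1 at P24 against P11 (0.0512) and added DNAJC3 at P30 against P24 (0.0463).

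Low counts limit ASNS, NUPR1 and CTH. Other members were low in some groups, such as ATF3, with 37 to 84 counts in P3, P11 and P24 libraries. SDF2L1 had 45 to 66 counts in DOX and DMSO libraries. DDIT3, NUPR1 and CANX share more of their span with a same-strand gene than the other members apart from ASNS.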

Other observations

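Chaperones outside the ER were counted as lists. At P33 against P3, where 34.5% of all genes rose and 33.3% fell, 7 of 11 cytosolic heat shock genes fell and 1 rose (median -0.349), and 5 of 10 mitochondrial chaperones and proteases fell and 2 rose (median -0.231). HSP90AB1, a cytosolic HSP90, averaged 682 ± 33.6 CPM at P33 and 1329 ± 43.7 CPM at P3 (SD, n = 3 each), and HSPA8, the constitutive HSP70, averaged 1151 ± 25.7 CPM at P33 and 1882 ± 49.6 CPM at P3. TRAP1, a mitochondrial HSP90, averaged 29.0 ± 0.621 CPM at P33 and 51.1 ± 2.56 CPM at P3. With DOX, where 16.7% of all genes rose and 20.6% fell, 2 of the cytosolic genes rose and 2 fell, and 4 of the mitochondrial genes rose and 1 fell. LONP1, a mitochondrial protease, averaged 187.5 ± 17.2 CPM with DOX and 141 ± 7.38 CPM with DMSO, and HSPA9, the mitochondrial HSP70, averaged 417 ± 12.4 CPM with DOX and 327 ± 12.3 CPM with DMSO. HSPH1, a cytosolic HSP110, averaged 207 ± 4.35 CPM with DOX and 271 ± 9.83 CPM with DMSO. Each named difference passed the edgeR quasi-likelihood test.

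Against the same shares of all genes, ER entry and signalling genes gave the following counts. Of 16 genes of the translocon, signal peptidase and SRP receptor, 5 rose and 7 fell at P33 against P3, and 7 rose and 2 fell with DOX. Of 11 other ER stress transducers and their proteases, 2 rose and 6 fell at P33 against P3, and 3 rose and 0 fell with DOX. ATF6B, the relative of ATF6, averaged 21.1 ± 2.43 CPM at P33 and 30.3 ± 0.393 CPM at P3, and fell, while ATF6 rose.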
